A study of Homo sapiens with 16 samples.

Results

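The interferon response genes are 53 human genes that cells switch on, or rely on, when they answer interferon. They were taken by name from a list, and the rule that picks them uses no measured value. The list was, however, chosen with earlier results of these data known. Each was examined as a locus, which is the hg38 gene body plus 10 kb on each side, and they make up 53 of the 19974 protein-coding loci on the autosomes and chromosome X. The measurement was ATAC-seq, in which Tn5 transposase cuts DNA where chromatin is open, in IMR90 cells, an established line of human lung fibroblasts. The cells were infected with a retrovirus carrying the fusion △B-RAF:ER, which 4-hydroxytamoxifen switches on, and active Raf of this kind is used to drive oncogene-induced senescence. The 16 libraries formed 4 groups with 4 replicates each: Raf-inactive normoxia, Raf-active normoxia, Raf-inactive hypoxia and Raf-active hypoxia, with hypoxia at 0.5% oxygen and 50000 nuclei in each library. The labels state neither what the Raf-inactive cells received nor the hours of treatment, nor whether the 4 replicates are separate cultures. The p-values thus rest on the variation among libraries, part or all of which may be technical. The study asked how hypoxia affects open chromatin in the senescent state.

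Interferons are secreted when sensors such as cGAS with STING1, or IFIH1, detect nucleic acid where it should not be, and activate IRF3 and IRF7. Bound interferon receptors activate JAK kinases, which phosphorylate STAT2. A complex of STAT2 and IRF9 binds the interferon-stimulated response element in promoters of the target genes. In senescent fibroblasts the cGAS and STING1 branch is known as a source of inflammatory and interferon signalling.

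A peak is an interval that the authors' caller listed as open, and each distinct interval was counted once, in the locus that holds its strongest summit. Loci can overlap, and a peak in an overlap counts in each of them: 23 of the 53 members overlap another member. Many member loci also reach protein-coding genes that are not members, such as PHRF1 and CDHR5 at IRF7 and RPL27 and VAT1 at IFI35. A peak or region at a member locus may thus lie in or near such a gene, and was not assigned to the member. Peak numbers were scaled so that every library had the same total over all protein-coding loci. The lists held 169287 to 206757 distinct peaks. The files give no read totals, but the background coverage recovered from them, here called the background pileup, averaged 3.23 for Raf-inactive normoxia, 6.75 for Raf-active normoxia, 4.78 for Raf-inactive hypoxia and 7.31 for Raf-active hypoxia (n = 4 each). Depth therefore moved with Raf. In Raf-inactive cells it also moved with oxygen, without overlap, from 3.013 to 3.498 in normoxia and from 4.605 to 5.022 in hypoxia. A locus without a peak is one where none passed the caller's threshold at the depth of that library. All 12 fibroblast markers, such as COL1A1, PDGFRA and THY1, had peaks in all 16 libraries. Their summed level was 123 to 135 scaled peaks for Raf-inactive normoxia, 123 to 132 for Raf-active normoxia, 142 to 144 for Raf-inactive hypoxia and 114 to 119 for Raf-active hypoxia. The 14 blood cell markers summed to 62.1 to 66.0, 77.6 to 86.5, 70.4 to 73.2 and 86.4 to 89.3 in the same order, with MS4A1 at 0 in all libraries and CD3D in all but 2 of them. The 7 epithelial markers summed to 35.7 to 39.4, 48.2 to 50.3, 38.8 to 40.3 and 51.3 to 56.3, and the 7 endothelial markers to 85.2 to 89.4, 98.9 to 104, 94.7 to 102 and 99.5 to 104. Among the tested markers, those of blood cells rose at 8 of 10 loci with Raf in normoxia and at 4 of 10 with Raf in hypoxia, epithelial ones at 4 and 3 of 5, and endothelial ones at 5 and 2 of 7, where 37.5% and 34% of all loci rose. Fibroblast markers fell at 4 of 12 and 8 of 12, where 25.6% and 26.2% of all loci fell. The part of these shifts in the results on the members was not tested. In bulk material, more cells with a site open and a site more open in each cell cannot be told apart.

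Most interferon response promoters were already open in Raf-inactive cells. RefSeq promoter windows, 250 bases before to 50 bases after a start site in GRCh38.p14, were at hand for 40 of the 53 members. Of these, 32 (80%) had a peak over a start window in all 16 libraries, against 66.1% of 15812 genes with a window. IFNB1 and XAF1 had none in any library, and 6 members had one in 1 to 15 libraries. The core of the interferon-stimulated response element (GAAA, any 2 bases, GAAA), searched on both strands, was in a window of 27 of 40 members (67.5%) and of 4.16% of all genes. The gamma-activated site TTCNNNGAA, a second element of interferon-induced promoters, was in 15 of 40 (37.5%) against 8.97%, and the AP-1 site TGANTCA, the sequence bound by FOS and JUN factors, in 6 of 40 (15%) against 8.04%. A gamma-activated site can share bases with an element core, as it does at EPSTI1. Of the 27 members with the element core, 22 had a promoter peak in all 16 libraries, as did 10 of the 13 without it. Since the members are known target genes, the share with the element describes the list and not these cells. A match is only a run of letters and does not show binding.

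The following 250 bases before the start site, 5′ to 3′ on the gene's strand, show promoters of some members named below. Matches to the element core on either strand are in capitals. No link between these letters and the changes below was tested. ISG15 and IFIT1 stand for promoters with peaks in all 16 libraries, at chr1:1013247-1013496 (plus strand) and chr10:89392373-89392622 (plus strand). IFI44L (chr1:78620198-78620447, plus strand) had a promoter peak in 14 libraries, the exceptions being 2 of 4 for Raf-active normoxia. GBP1 (chr1:89065209-89065458, minus strand) had one in all 16 and lies in 1 cluster with GBP4 and GBP5. BST2 (chr19:17405631-17405880, minus strand) had one in 12 libraries and in none of Raf-inactive hypoxia. The most upstream start of CMPK2 (chr2:6866636-6866885, minus strand), with no element core, had one in 0, 2, 4 and 4 libraries of Raf-inactive normoxia, Raf-active normoxia, Raf-inactive hypoxia and Raf-active hypoxia.
ISG15: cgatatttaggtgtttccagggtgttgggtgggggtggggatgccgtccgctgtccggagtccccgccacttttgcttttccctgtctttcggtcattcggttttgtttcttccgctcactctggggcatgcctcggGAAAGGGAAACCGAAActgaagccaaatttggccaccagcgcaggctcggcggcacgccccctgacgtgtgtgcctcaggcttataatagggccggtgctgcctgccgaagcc
IFIT1: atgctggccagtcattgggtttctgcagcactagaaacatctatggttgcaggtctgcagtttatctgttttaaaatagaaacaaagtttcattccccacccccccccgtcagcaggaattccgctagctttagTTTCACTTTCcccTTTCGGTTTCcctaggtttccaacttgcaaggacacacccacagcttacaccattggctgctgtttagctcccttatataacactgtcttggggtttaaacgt
IFI44L: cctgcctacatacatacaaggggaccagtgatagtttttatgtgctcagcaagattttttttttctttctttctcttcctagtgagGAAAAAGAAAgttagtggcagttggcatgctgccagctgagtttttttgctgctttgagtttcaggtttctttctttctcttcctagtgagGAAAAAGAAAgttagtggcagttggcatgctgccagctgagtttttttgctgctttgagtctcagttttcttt
GBP1: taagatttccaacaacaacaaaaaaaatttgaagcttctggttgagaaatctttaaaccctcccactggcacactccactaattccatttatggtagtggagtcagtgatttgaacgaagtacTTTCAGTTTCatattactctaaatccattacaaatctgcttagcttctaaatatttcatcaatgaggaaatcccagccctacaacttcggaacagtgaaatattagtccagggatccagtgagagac
BST2: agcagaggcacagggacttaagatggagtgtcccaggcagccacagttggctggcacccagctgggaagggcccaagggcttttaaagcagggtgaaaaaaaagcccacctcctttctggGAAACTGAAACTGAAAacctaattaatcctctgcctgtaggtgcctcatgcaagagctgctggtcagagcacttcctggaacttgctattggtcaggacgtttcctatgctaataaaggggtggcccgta
CMPK2: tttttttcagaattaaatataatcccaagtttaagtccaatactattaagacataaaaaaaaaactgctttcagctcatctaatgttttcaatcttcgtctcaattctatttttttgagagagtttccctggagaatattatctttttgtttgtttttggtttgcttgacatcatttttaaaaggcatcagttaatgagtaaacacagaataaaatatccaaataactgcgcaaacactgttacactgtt

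In ISG15 and BST2 the capitals hold 2 overlapping matches each, starting at positions -113 and -107 from the start site in ISG15 and -130 and -124 in BST2. IFIT1 has matches at -116 and -103, IFI44L at -164 and -73, and GBP1 a single one at -127. GBP4 has the core on the other strand as TTTCAATTTC across its start site, beginning at -4. Exons, introns and the sequence of regions outside these windows were not analysed here.

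Summed over the members, the 4 groups differed little. The sum over the 53 member loci was 244 to 262 scaled peaks for Raf-inactive normoxia, 246 to 252 for Raf-active normoxia, 257 to 266 for Raf-inactive hypoxia and 256 to 261 for Raf-active hypoxia. The groups overlap except that all 8 hypoxia libraries lie above all Raf-active normoxia libraries. Single loci moved in both directions. Of the 53 members, 50 had a peak in every library, and 41 had a mean of at least 3 peaks and were tested. The 12 others were IFI44, IRF7, BST2, XAF1, HERC5, HERC6, SAMD9, GBP1, GBP2, GBP4, GBP5 and IFNB1. Of the 41 tested, 35 were called in at least 1 of the 4 pairwise comparisons, and CGAS, STING1, ISG15, IFIT3, IFIT5 and PSMB8 in none.

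**Figure D1:**
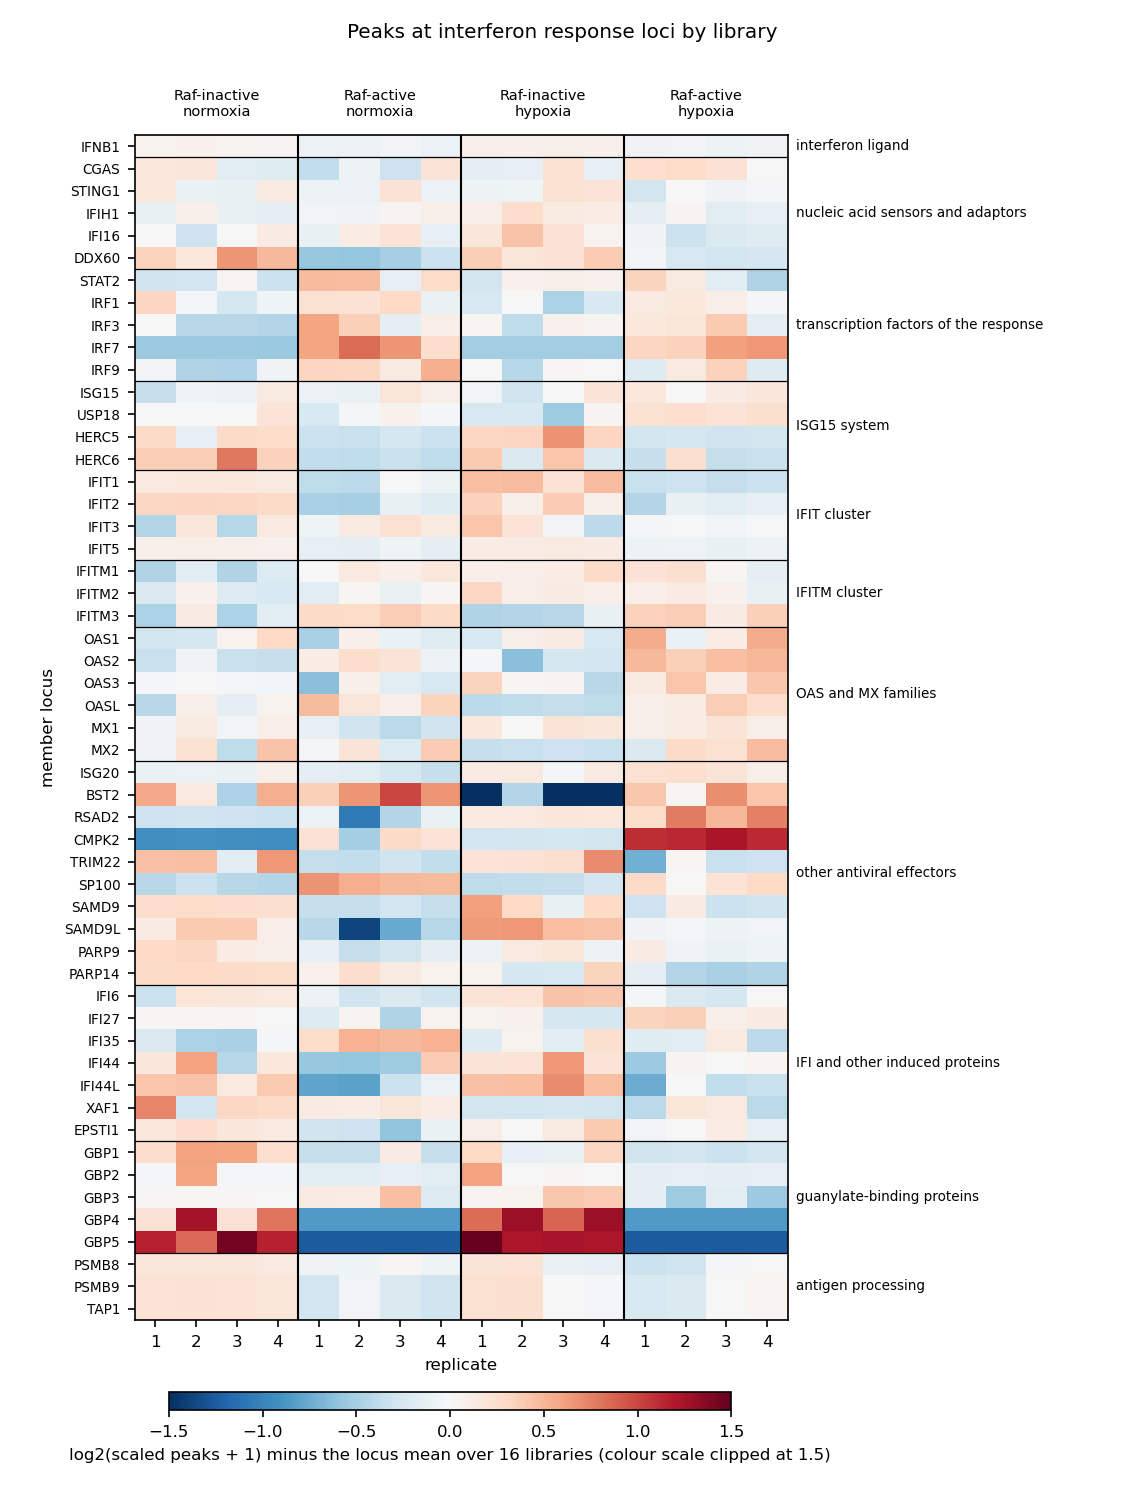
Each row is a member locus, grouped by role, and each column is a library, in 4 groups of replicates 1 to 4. Colour gives log2(scaled peaks + 1) minus the locus mean over 16 libraries, clipped at 1.5. GBP4 and GBP5 are blue in all 8 Raf-active libraries, CMPK2 is darkest red in Raf-active hypoxia, and BST2 is blue in Raf-inactive hypoxia.

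With Raf active in normoxia, 21 of 41 tested members (51.2%) changed at a limma adjusted p below 0.05, 10 higher and 11 lower, where 63.1% of all 15175 tested loci changed, 37.5% higher and 25.6% lower. The median log2 change was -0.11 over the members and 0.10 over all loci. With Raf in hypoxia, again 21 of 41 (51.2%) changed, 10 higher and 11 lower, against 60.2% of all loci (34% higher, 26.2% lower), with medians of -0.06 and 0.06. In both Raf comparisons CMPK2, IFITM3, OAS2, OASL and SP100 rose (5 members), and DDX60, IFI44L, IFIT1, IFIT2, SAMD9L and TRIM22 fell (6 members). Hypoxia in Raf-inactive cells raised 3 of 41 and lowered 0 of 41, against 13.7% of all loci changed (6.41% higher, 7.33% lower). Hypoxia in Raf-active cells raised 10 and lowered 4 of 41 (34.1% in all), against 27.8% of all loci (13.6% higher, 14.2% lower), with medians of 0.10 and -0.02. The count fell from 14 to 9 without Raf-active hypoxia replicate 4. The difference of the Raf change between hypoxia and normoxia was called for 7 of 41 members (17.1%), 1 higher and 6 lower, against 19.5% of all loci (9.9% higher, 9.63% lower). A Raf comparison and a hypoxia comparison share a group and so are not independent. Taking listed peaks alone, the groups did not overlap, with higher values, at 9 of 41 members with Raf in normoxia (44.6% of all loci), 12 with Raf in hypoxia (42.9%), 3 with hypoxia in Raf-inactive cells (2.97%) and 6 with hypoxia in Raf-active cells (8.57%). They did not overlap, with lower values, at 3 members (12.4% of all loci), 3 (11.3%), 0 (6.91%) and 3 (13.3%) in the same order. Without scaling, the median over all loci moved from 0.10 to 0.33 with Raf in normoxia and from 0.06 to 0.29 with Raf in hypoxia. The share of higher loci among those called then went from 59.4% to 77.5%, and from 56.4% to 78.4%. All changes below are thus relative to the total of a library. The members moved with it: without scaling, 17 were called higher and 7 lower with Raf in normoxia, 17 higher and 5 lower with Raf in hypoxia, 2 higher and 1 lower with hypoxia in Raf-inactive cells, and 6 higher and 4 lower with hypoxia in Raf-active cells. No member call named below turned to the opposite sign without scaling or with median-ratio scaling, but some ended, as given with each member.

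**Figure D2:**
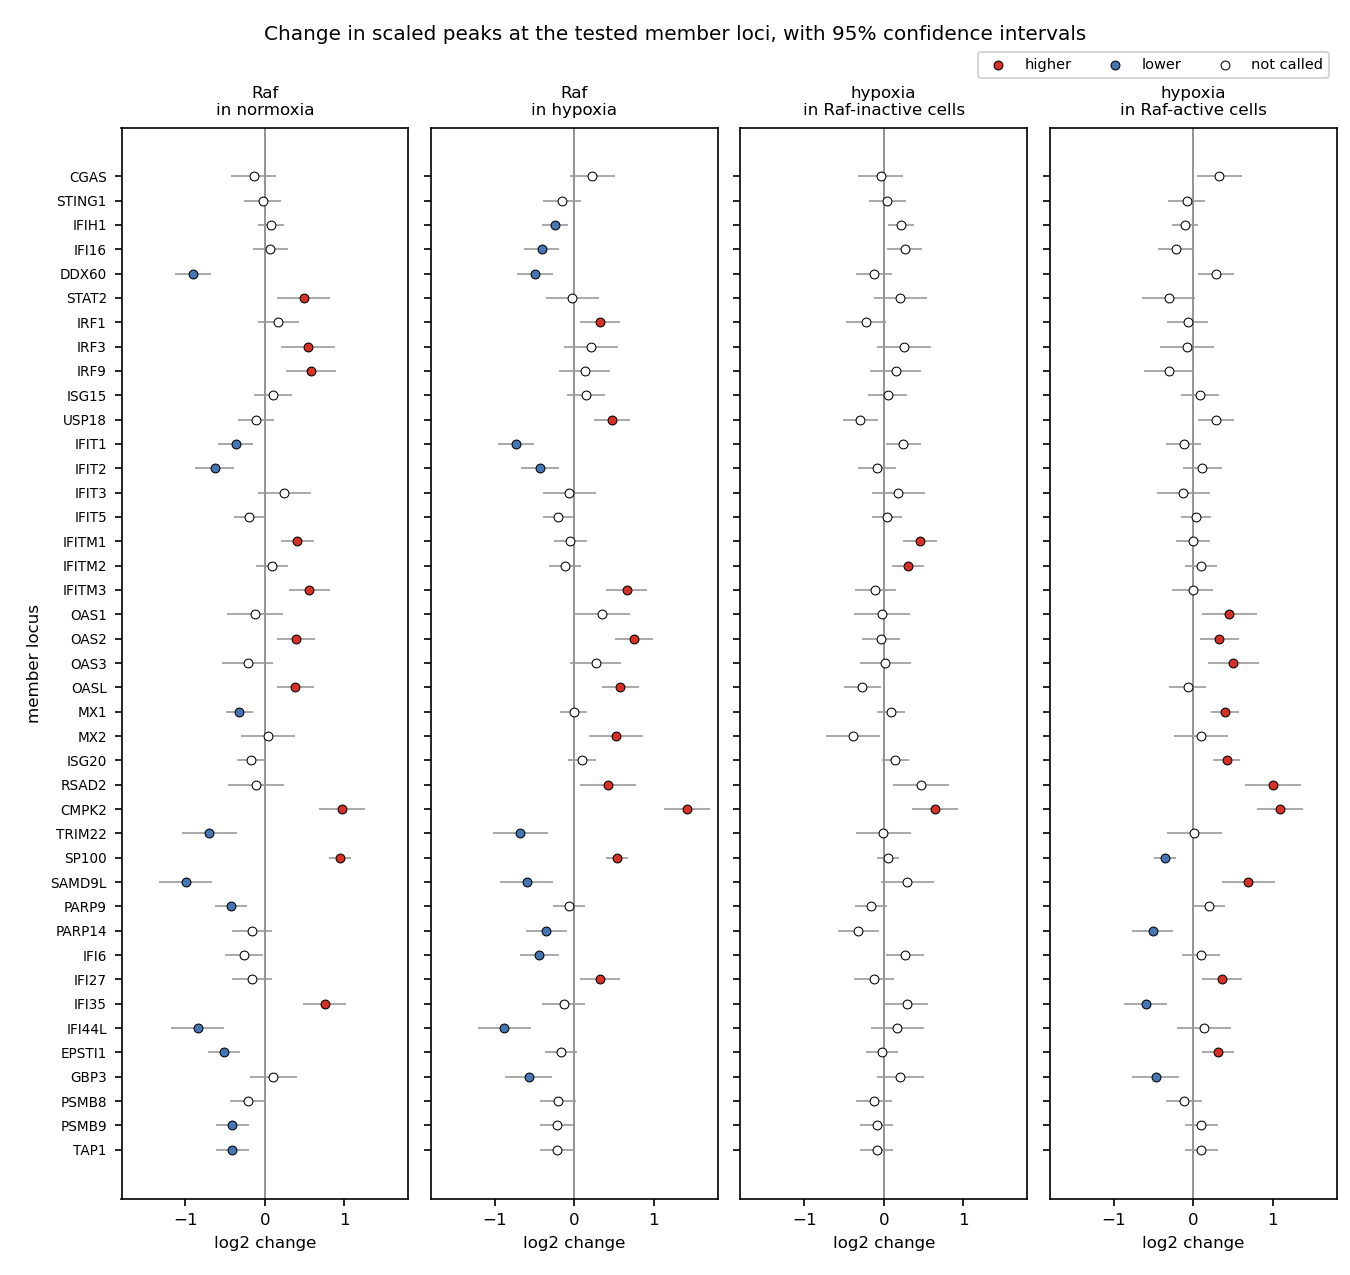
Each row is 1 of the 41 tested members and each panel a comparison. Points give the change in log2(scaled peaks + 1) with its 95% confidence interval from limma, red for higher, blue for lower and white for not called. Filled points lie on both sides of 0 with Raf, while hypoxia in Raf-inactive cells has 3 filled points.

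Changes are given below as log2 ± SE with the limma adjusted p over all 15175 loci. For members fitted without the filter, the adjustment was over 18782 loci. Some groups held the same listed number in every library, and so added almost no spread to the estimate that all groups share. A pseudocount of 1 peak understates changes at loci with few peaks. Values by library are listed peaks, replicates 1 to 4, before scaling. Where the call of a pairwise comparison ended or turned under another setting, that value stands beside it, as a range where many single libraries ended it. The settings were flanks of 2 or 50 kb, no scaling, base pairs covered in place of peaks, only peaks with a fold enrichment of at least 5 or a −log10 q of at least 5, lists cut to equal length, lists thinned to the lowest background pileup, called matched depth, a pseudocount of 0.5, other filters on the mean, and a fit of the compared groups alone.

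Of the 5 nucleic acid sensors and adaptors, all tested, 1 fell with Raf in normoxia (25.6% of all loci), 3 fell with Raf in hypoxia (26.2% of all loci), and none was called with hypoxia. IFNB1, the gene of interferon beta on chromosome 9 (21077104 to 21077942), had exactly 1 peak in each of the 16 libraries, and not at its promoter. CGAS, which detects cytosolic DNA, had 3 to 5 peaks and STING1, its adaptor, 4 to 6 across all libraries, with no call in any comparison. IFIH1, a sensor of double-stranded RNA also known as MDA5, had 7, 8, 7 and 7 peaks for Raf-inactive normoxia, 9, 9, 9 and 10 for Raf-active normoxia, and 8, 9, 8 and 8 in both hypoxia groups. Its scaled number fell by 0.24 ± 0.08 with Raf in hypoxia (adjusted p 0.0139), a change that is 0 without scaling and that also lost its call at a fold of at least 5 (-0.15) and at equal list length (-0.12). IFI16, a nuclear DNA sensor, had 10, 12, 10 and 9 peaks in Raf-inactive hypoxia and 10, 8, 9 and 9 for Raf-active hypoxia, which overlap. It fell by 0.41 ± 0.11 there (adjusted p 0.00253), and by 0.17 with no call when unscaled.

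DDX60, a helicase that takes part in RNA sensing, lost peaks with Raf. Its locus on chromosome 4 (168216294 to 168325979) had 7, 6, 9 and 8 peaks for Raf-inactive normoxia, 4, 4, 4 and 5 for Raf-active normoxia, 7, 6, 6 and 7 for Raf-inactive hypoxia and 6, 5, 5 and 5 for Raf-active hypoxia. The normoxia groups do not overlap, and those in hypoxia meet at 6 peaks. DDX60 fell by 0.90 ± 0.11 with Raf in normoxia (adjusted p 4.92e-07) and by 0.49 ± 0.11 in hypoxia (adjusted p 0.000576). In hypoxia the change turned to 0.09 when the flanks of the locus were cut to 2 kb. A region at -17075 bases from the nearest annotated start, chr4:168335570-168336041, had peaks in all 8 Raf-inactive libraries and in 0 of 8 Raf-active libraries. The promoter itself had a peak in all 16.

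The lost region with the highest rank in its lists lay inside IFI16. The region chr1:159039709-159041133, 1425 bp long and 30505 bases after the nearest annotated start, had a peak in 8 of 8 Raf-inactive and 0 of 8 Raf-active libraries. It ranked on average at percentile 94.6 of the −log10 p within the lists that held it, a value of the authors' caller. Regions near the 3′ end, at chr1:159056098-159056725 and chr1:159059256-159059598, had the opposite pattern, 0 of 8 and 8 of 8. IFI16 as a locus was not called with Raf in normoxia, with 9, 7, 9 and 10 peaks before and 10, 12, 12 and 10 after.

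Transcription factors of the response gained peaks with Raf in normoxia at 3 of 4 tested loci, where 37.5% of all loci did, and 1 of the 3, STAT2, did not hold at equal list length. IRF9, the DNA-binding partner of STAT2, had 3, 2, 2 and 3 peaks for Raf-inactive normoxia and 5, 5, 4 and 6 for Raf-active normoxia, groups that do not overlap, and rose by 0.58 ± 0.15 (adjusted p 0.00243). In hypoxia it had 3, 2, 3 and 3 and then 3, 4, 5 and 3 peaks, with no call. The normoxia call ended with loci widened to 50 kb (0.16). IRF3, which induces IFNB1, had 3, 2, 2 and 2 and then 6, 5, 3 and 4 peaks which meet at 3, and rose by 0.54 ± 0.16 in normoxia (adjusted p 0.00648). IRF7, which amplifies interferon production, lay below the filter. It had 1 peak in each of the 8 Raf-inactive libraries, 4, 5, 4 and 3 for Raf-active normoxia and 3, 3, 4 and 4 for Raf-active hypoxia, so the groups do not overlap. Fitted without the filter, limma gave it 1.13 ± 0.11 (adjusted p 3.12e-07) and 1.00 ± 0.11 (adjusted p 1.52e-06). With 1 peak in each, the Raf-inactive libraries added almost no spread to the shared estimate behind these p-values. The IRF7 regions chr11:612160-612458 and chr11:613485-613866, the second inside the gene, were in 0 of 8 Raf-inactive and 8 of 8 Raf-active libraries. At matched depth the second was in 2 of 4 libraries of Raf-active hypoxia.

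STAT2 turned with depth. It had 3, 3, 4 and 3 peaks for Raf-inactive normoxia and 7, 7, 4 and 6 for Raf-active normoxia, which meet at 4, a rise of 0.49 ± 0.16 (adjusted p 0.0120). Among equally long lists the change was -0.11, and with a −log10 q of at least 5 it was 0.16 with no call. In lists thinned to the same background pileup it had 3, 3, 4 and 3 against 2, 3, 2 and 2 peaks and was no longer tested. The region inside STAT2 at chr12:56358867-56359392 was in 8 of 8 Raf-inactive libraries and 0 of 8 Raf-active ones. IRF1, a transcription factor that interferon induces, rose by 0.33 ± 0.12 with Raf in hypoxia (adjusted p 0.0275), from 5, 6, 4 and 5 to 8, 8, 8 and 7 peaks. That call ended at 50 kb (0.04), at a fold of at least 5 (0.08), and without any 1 of 4 libraries, with values of 0.25 without Raf-inactive hypoxia replicate 3 and 0.31, 0.30 and 0.32 without Raf-active hypoxia replicates 1, 2 and 3.

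In the ISG15 system 2 of 4 genes were tested, and USP18 was called. ISG15 itself, a ubiquitin-like protein, had 4, 5, 5 and 6 peaks for Raf-inactive normoxia, 6, 6, 7 and 7 for Raf-active normoxia, 5, 4, 5 and 6 for Raf-inactive hypoxia and 7, 6, 7 and 7 for Raf-active hypoxia, and was not called in any comparison. USP18, which removes ISG15 and dampens the receptor, had 5, 5, 5 and 6, then 5, 6, 6 and 6, then 4, 4, 3 and 5, then 7, 7, 7 and 7 peaks in the same groups. It rose with Raf in hypoxia by 0.47 ± 0.11 (adjusted p 0.000835), and the Raf change in hypoxia exceeded that in normoxia by 0.58 ± 0.15 (interaction, adjusted p 0.0113). The ISG15 ligase HERC5 had 2 to 4 peaks in the 8 Raf-inactive libraries and 2 in each of the 8 Raf-active ones. Its neighbour HERC6 had 2, 2, 3 and 2, then 1 in each, then 2, 1, 2 and 1, then 1, 2, 1 and 1. Both lay below the filter. Fitted without it, limma gave HERC5 a fall with Raf in normoxia (-0.49, adjusted p 0.000753) and in hypoxia (-0.69, adjusted p 3.89e-05), and HERC6 one in normoxia (-0.84, adjusted p 0.000536), where its groups do not overlap.

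Within the IFIT cluster, whose proteins bind foreign RNA, 2 of 4 genes fell with Raf in each oxygen state. Of all loci, 25.6% fell with Raf in normoxia and 26.2% in hypoxia. IFIT1 had 4 peaks in each Raf-inactive normoxia library, 3, 3, 4 and 4 for Raf-active normoxia, 5, 5, 4 and 5 for Raf-inactive hypoxia and 3 in each of Raf-active hypoxia. The hypoxia groups do not overlap, and IFIT1 fell there by 0.73 ± 0.11 (adjusted p 6.76e-06), a call that ended at a fold of at least 5 (-0.16). Its fall of 0.36 in normoxia ended without scaling (-0.16), at 50 kb (-0.10), at equal list length (-0.21) and at matched depth (-0.22). IFIT2 had 5 peaks in each Raf-inactive normoxia library and 3, 3, 4 and 4 for Raf-active normoxia, and fell by 0.63 ± 0.12 (adjusted p 9.46e-05). In hypoxia it fell by 0.43 ± 0.12 (adjusted p 0.00353), and by 0.21 with no call when unscaled. IFIT3 had 3 to 6 peaks, with no call, and IFIT5 had exactly 3 in all 16 libraries. A region at -7412 bases from the start of IFIT1, chr10:89384973-89385413, was in 4 of 4 libraries of Raf-inactive hypoxia and in none of the other 12.

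The IFITM cluster encodes membrane proteins that block viral entry. In it 2 of 3 genes rose with Raf in normoxia (37.5% of all loci) and 1 of 3 in hypoxia (34% of all loci). IFITM3 on chromosome 11 (319676 to 320860) had 3, 5, 3 and 4 peaks for Raf-inactive normoxia, 7 in each of Raf-active normoxia, 3, 3, 3 and 4 for Raf-inactive hypoxia and 7, 7, 6 and 7 for Raf-active hypoxia. The Raf-active groups lie above the Raf-inactive ones with no overlap. IFITM3 rose by 0.56 ± 0.12 with Raf in normoxia (adjusted p 0.000607) and by 0.66 ± 0.12 in hypoxia (adjusted p 0.000134). At matched depth it had 2 to 5 peaks in the Raf-inactive libraries against 7 in each of Raf-active normoxia and 5 or 6 for Raf-active hypoxia. IFITM1 had 4, 5, 4 and 5, then 7, 8, 7 and 8, then 6, 6, 6 and 7, then 8, 8, 7 and 6 peaks. It rose by 0.41 ± 0.10 with Raf in normoxia (adjusted p 0.00148), which turned to -0.31 at a fold of at least 5, and by 0.46 ± 0.10 with hypoxia in Raf-inactive cells (adjusted p 0.00542). The hypoxia call ended at 50 kb (0.12), with base pairs in place of peaks (0.11) and at a fold of at least 5 (0.14). IFITM2 rose by 0.30 ± 0.10 with hypoxia in Raf-inactive cells (adjusted p 0.0433), from 4, 5, 4 and 4 to 6, 5, 5 and 5 peaks, which meet at 5. That call turned with base pairs (-0.02), and ended without scaling (0.25), at 50 kb (0.12), at a −log10 q (0.24) or fold (0.08) of at least 5, at equal list length (0.27), at matched depth (0.20), with the compared groups fitted alone (0.30) and without any 1 of 9 libraries, at 0.25 to 0.32. The 3 loci overlap and share peaks, among them the region chr11:309963-310387, present in 0 of 8 Raf-inactive and 8 of 8 Raf-active libraries.

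The OAS and MX families are enzymes and GTPases that act against viral RNA and particles. Of their 6 genes, 3 rose with Raf in hypoxia, where 34% of all loci did. OAS2 had 4, 5, 4 and 4 peaks for Raf-inactive normoxia, 7, 8, 7 and 6 for Raf-active normoxia, 5, 3, 4 and 4 for Raf-inactive hypoxia and 9, 8, 9 and 9 for Raf-active hypoxia. Raf groups do not overlap in either oxygen state, and OAS2 rose by 0.39 ± 0.11 in normoxia (adjusted p 0.00623) and by 0.75 ± 0.11 in hypoxia (adjusted p 1.3e-05). Both calls ended at equal list length (0.16 and 0.26) and at matched depth (0.32 and 0.44), and that in normoxia also at 50 kb (0.20). OASL had 4, 6, 5 and 6, then 10, 8, 7 and 9, then 4, 4, 4 and 4, then 7, 7, 9 and 8 peaks. It rose by 0.38 ± 0.11 with Raf in normoxia (adjusted p 0.00588) and by 0.58 ± 0.11 in hypoxia (adjusted p 0.000184), and these calls held under every setting run. A region beside OASL, chr12:121042766-121043499, was in 0 of 8 Raf-inactive and 8 of 8 Raf-active libraries, at mean percentile 73.1 in its lists. MX2 rose with Raf in hypoxia by 0.52 ± 0.16 (adjusted p 0.00912), from 3 peaks in each library to 4, 6, 6 and 7. At matched depth MX2 had 3 in each against 4 in each, and the call ended (0.23), as it did at equal list length (0.05) and a −log10 q of at least 5 (0.23).

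With hypoxia in Raf-active cells, 4 of the 6 OAS and MX loci rose, where 13.6% of all loci did. The locus of OAS3 overlaps those of OAS1 and OAS2, so these are not separate counts. At matched depth the OAS1 and OAS2 calls did not hold and OAS3 was not tested. MX1 had 8, 7, 6 and 7 peaks in Raf-active normoxia and 9, 9, 10 and 9 for Raf-active hypoxia, and rose by 0.40 ± 0.08 (adjusted p 0.00108), a call that ended at 50 kb (0.10). Its region chr21:41422126-41422540, 1743 bases after the nearest annotated start, appeared in 4 of 4 Raf-active hypoxia libraries and in 0 of the other 12. MX1 had fallen with Raf in normoxia by 0.32 ± 0.08 (adjusted p 0.00234), from 7, 8, 7 and 8 peaks, but this turned to 0.22 at 50 kb and ended without scaling (-0.09), at equal list length (-0.06) and at matched depth (-0.11). OAS3 had 2, 4, 3 and 3 and then 4, 5, 4 and 5 peaks, overlapping at 4, and rose by 0.50 ± 0.15 (adjusted p 0.0179). That call ended without Raf-active normoxia replicate 1 (0.37) and without Raf-active hypoxia replicates 2 (0.45) and 4 (0.46). OAS3 was also not tested at 2 kb, at equal list length, or at a fold or −log10 q of at least 5. OAS1 with 0.45 ± 0.17 (adjusted p 0.0481) and OAS2 with 0.33 ± 0.11 (adjusted p 0.0372) were the other risers. At matched depth the OAS1 call ended (0.11) and OAS2 turned to -0.03, and both calls were also lost without scaling (0.42 and 0.29) and at equal list length (0.10 and 0.03). OAS1 further lost its call with median-ratio scaling (0.45), a pseudocount of 0.5 (0.50), the looser filters (0.45) and the compared groups alone (0.46), and OAS2 at 2 kb (0.17) and a −log10 q of at least 5 (0.16). OAS1 lost its call without any 1 of 9 libraries (0.35 to 0.48) and OAS2 without any 1 of 5 (0.26 to 0.33), among them Raf-active normoxia replicates 1 and 4 and Raf-active hypoxia replicates 1 and 4 for both.

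CMPK2 rose in all 4 comparisons, but it passed the filter only through its peaks in Raf-active hypoxia. With the compared groups fitted alone it was therefore not tested for Raf in normoxia or for hypoxia in Raf-inactive cells. It encodes a mitochondrial nucleotide kinase and shares its promoter region with RSAD2, whose product viperin makes an antiviral nucleotide. CMPK2, on chromosome 2 (6840553 to 6866635), had 1 peak in each Raf-inactive normoxia library, 4, 2, 4 and 4 for Raf-active normoxia, 2 in each of Raf-inactive hypoxia and 8, 8, 9 and 8 for Raf-active hypoxia. None of the groups compared overlap. The change was 0.97 ± 0.14 with Raf in normoxia (adjusted p 5.45e-06), 1.42 ± 0.14 with Raf in hypoxia (adjusted p 4.38e-08), 0.64 ± 0.14 with hypoxia in Raf-inactive cells (adjusted p 0.00477) and 1.09 ± 0.14 with hypoxia in Raf-active cells (adjusted p 9.09e-06). At matched depth the numbers were 1 in each, 4, 2, 4 and 4, 2 in each, and 6, 7, 7 and 6. Widening the locus to 50 kb ended the first call (0.00) and the third (0.17), and base pairs in place of peaks ended the third (0.16).

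The added CMPK2 peaks lay inside the gene and beyond its end. The regions chr2:6856695-6857511, chr2:6850459-6850985 and chr2:6835485-6835840 were in 4 of 4 Raf-active hypoxia libraries and 0 of the other 12. At matched depth the last of them was in 1 of 4. The region chr2:6846697-6847327 was in all 8 Raf-active and no Raf-inactive library. The region at the upstream start, chr2:6866463-6866718, whose promoter letters are printed above, was the peak that Raf-inactive cells gained in hypoxia. RSAD2 had 2 peaks in each Raf-inactive normoxia library, 3, 1, 2 and 3 for Raf-active normoxia, 3 in each of Raf-inactive hypoxia and 4, 6, 5 and 6 for Raf-active hypoxia. It rose by 1.00 ± 0.17 with hypoxia in Raf-active cells (adjusted p 0.000180). Like CMPK2, RSAD2 passed the filter only through its peaks in Raf-active hypoxia. It was not tested at 2 kb, at a fold of at least 5, at equal list length or at matched depth. Its rise of 0.42 ± 0.17 with Raf in hypoxia (adjusted p 0.0374) ended with a pseudocount of 0.5 (0.47). That RSAD2 call also ended without any 1 of the 4 Raf-inactive hypoxia libraries (0.42 to 0.43) or Raf-active hypoxia replicate 3 (0.44). Of its added regions, chr2:6855693-6856163 and chr2:6856695-6857511 lie in the CMPK2 gene within 10 kb of RSAD2. The RSAD2 start at 6877777, with the core on the other strand as TTTCAGTTTC at -145, had a peak in 4, 0, 4 and 1 libraries of Raf-inactive normoxia, Raf-active normoxia, Raf-inactive hypoxia and Raf-active hypoxia.

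**Figure D3:**
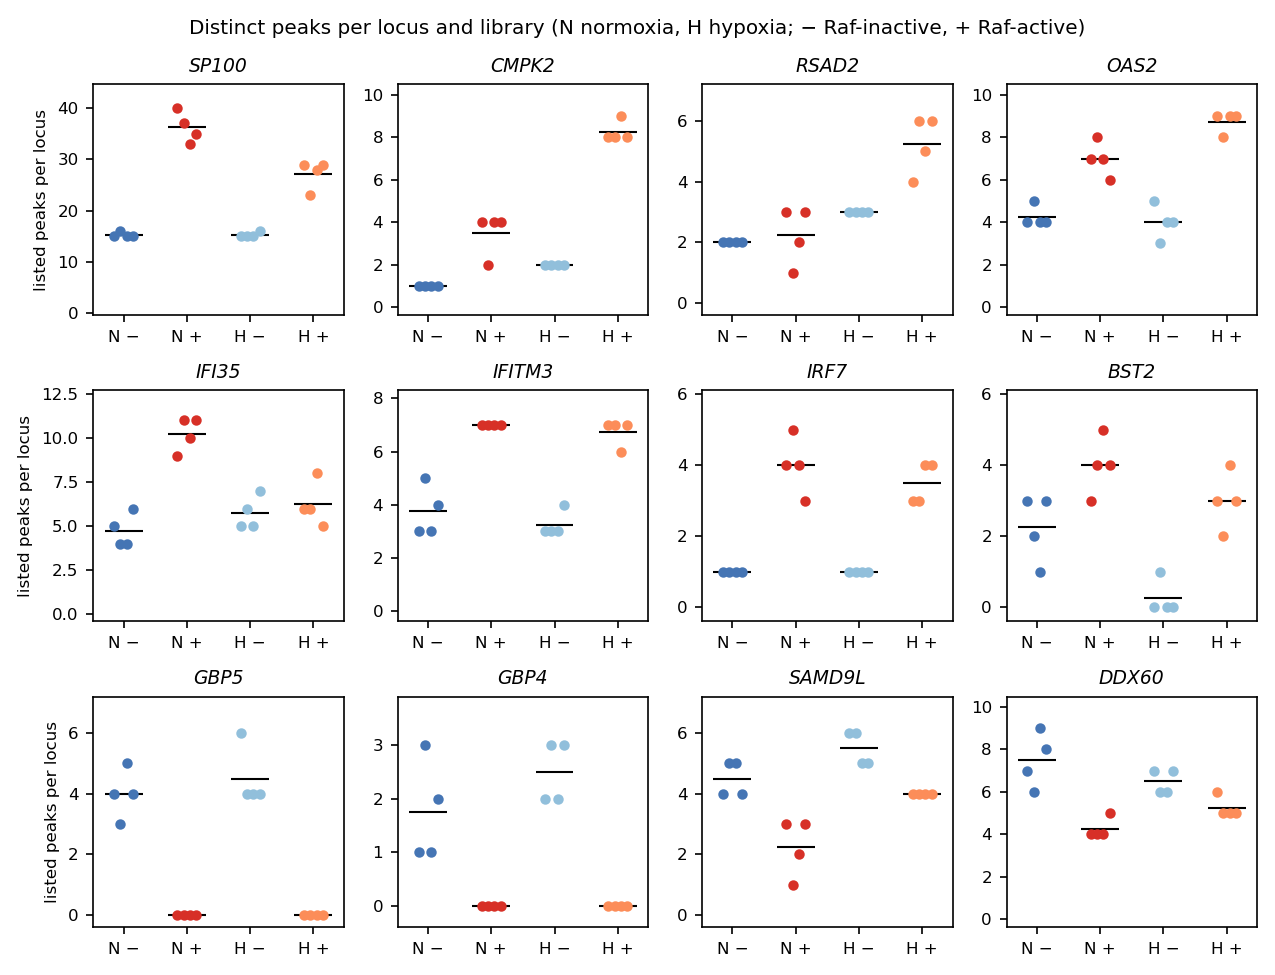
Points are single libraries, with listed peaks per locus on the vertical axis, and bars are means of the 4 replicates. N is normoxia, H hypoxia, − Raf-inactive and + Raf-active. GBP5 and GBP4 sit at 0 in all 8 Raf-active libraries, and CMPK2 reaches 8 or 9 peaks in Raf-active hypoxia.

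SP100 gained the most peaks of all members with Raf. It encodes a protein of PML nuclear bodies, which restrict viral genomes, and lies on chromosome 2 (230416201 to 230545606). It had 15, 16, 15 and 15 peaks for Raf-inactive normoxia, 40, 37, 33 and 35 for Raf-active normoxia, 15, 15, 15 and 16 for Raf-inactive hypoxia and 29, 23, 28 and 29 for Raf-active hypoxia. The Raf-active groups lie above the Raf-inactive ones and do not overlap each other. SP100 rose by 0.94 ± 0.07 with Raf in normoxia (adjusted p 3.75e-10) and by 0.54 ± 0.07 with Raf in hypoxia (adjusted p 1.18e-06), and fell by 0.35 ± 0.07 with hypoxia in Raf-active cells (adjusted p 0.000587). The Raf change was 0.41 ± 0.10 smaller in hypoxia (interaction -0.41, adjusted p 0.00587). At matched depth the lists held 14 or 15, 25 to 27, 12 to 15 and 18 to 23 peaks. Among peaks with a fold of at least 5 the calls ended in normoxia (0.34) and for hypoxia (-0.40), the interaction call ended (-0.44), and Raf in hypoxia turned to -0.11. The strongest gained region, chr2:230405672-230406309, overlaps the edge of the locus and was in 0 of 8 Raf-inactive and 8 of 8 Raf-active libraries. Its strongest summit lies at -10218 bases from the start site, beyond the 10 kb flank, so a peak with that summit is not among those counted above.

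SAMD9L and TRIM22 fell with Raf. SAMD9L, a restriction factor that limits translation, had 4, 5, 5 and 4 peaks for Raf-inactive normoxia, 3, 1, 2 and 3 for Raf-active normoxia, 6, 6, 5 and 5 for Raf-inactive hypoxia and 4 in each of Raf-active hypoxia. It fell by 1.00 ± 0.16 with Raf in normoxia (adjusted p 2.06e-05) and by 0.60 ± 0.16 in hypoxia (adjusted p 0.00324), and rose by 0.69 ± 0.16 with hypoxia in Raf-active cells (adjusted p 0.00273). The Raf call in hypoxia ended without scaling (-0.37), at 2 kb (-0.30) and at matched depth (-0.30). Its region chr7:93156813-93157318, at -8760 bases from the start site, was in 8 of 8 Raf-inactive and 0 of 8 Raf-active libraries. SAMD9, its neighbour, lay below the filter, with 3 peaks in each library of Raf-inactive normoxia against 2 in each of Raf-active normoxia, and 4, 3, 2 and 3 against 2, 3, 2 and 2 in hypoxia. Without the filter, limma gave SAMD9 a fall in normoxia (-0.60, adjusted p 0.000918) and in hypoxia (-0.48, adjusted p 0.00494). TRIM22, an antiviral ubiquitin ligase, had 5, 5, 3 and 6 peaks for Raf-inactive normoxia and 3 in each of Raf-active normoxia, which meet at 3. TRIM22 fell by 0.70 ± 0.17 (adjusted p 0.00122), and in hypoxia by 0.68 ± 0.17 (adjusted p 0.00167), from 4, 4, 4 and 6 to 2, 4, 3 and 3 peaks, a call that ended at 50 kb (-0.25).

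ISG20, an RNA exonuclease, had 7, 7, 6 and 6 peaks in Raf-active normoxia and 9, 9, 9 and 8 for Raf-active hypoxia, and rose by 0.42 ± 0.08 (adjusted p 0.000690). That call ended at 2 kb (0.22), with base pairs (0.11) and at a fold of at least 5 (0.04). PARP14, an ADP-ribosyltransferase, went from 5, 6, 5 and 5 to 4, 3, 3 and 3 peaks in the same comparison and fell by 0.51 ± 0.12 (adjusted p 0.00380). At 50 kb (-0.07) and at a fold of at least 5 (-0.28) it was not called. Its fall of 0.35 ± 0.12 with Raf in hypoxia (adjusted p 0.0179), from 4, 3, 3 and 5 peaks, ended without scaling (-0.15), with base pairs (-0.01), at a fold of at least 5 (-0.10), at equal list length (-0.26), with the compared groups alone (-0.35), and without Raf-inactive hypoxia replicate 4 (-0.23) or Raf-active hypoxia replicate 3 (-0.32). PARP9 fell with Raf in normoxia by 0.43 ± 0.10 (adjusted p 0.000681), from 7, 7, 6 and 6 to 6, 5, 5 and 6 peaks. Its change turned to 0.17 at 50 kb, and its call ended at a fold of at least 5 (-0.05). BST2, or tetherin, which holds virions at the cell surface, lay below the filter with 3, 2, 1 and 3, then 3, 4, 5 and 4, then 0, 1, 0 and 0, then 3, 2, 4 and 3 peaks. Its promoter region chr19:17405505-17405840 was in 4, 4, 0 and 4 libraries of the groups in that order, and in 4, 4, 0 and 3 at matched depth. Without the filter, limma gave BST2 a rise of 1.63 ± 0.26 with Raf in hypoxia (adjusted p 7.6e-05) and a fall with hypoxia in Raf-inactive cells (-1.45 ± 0.26, adjusted p 0.00229).

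Among the IFI genes, IFI35 and IFI44L moved apart. IFI35, a leucine zipper protein, had 5, 4, 4 and 6 peaks for Raf-inactive normoxia, 9, 11, 10 and 11 for Raf-active normoxia, 5, 6, 5 and 7 for Raf-inactive hypoxia and 6, 6, 8 and 5 for Raf-active hypoxia. Only Raf-active normoxia stands clear of the rest. IFI35 rose by 0.75 ± 0.13 with Raf in normoxia (adjusted p 4.33e-05) and fell by 0.60 ± 0.13 with hypoxia in Raf-active cells (adjusted p 0.00163), and the Raf change differed between oxygen states by -0.88 ± 0.18 (interaction, adjusted p 0.00227). The Raf call ended at 50 kb (0.05), and it ended at a fold of at least 5 (0.01), as did the other 2 (-0.01 and -0.10). IFI44L had 5, 5, 4 and 5, then 2, 2, 3 and 4, then 5, 5, 6 and 5, then 2, 4, 3 and 3 peaks. It fell by 0.84 ± 0.16 with Raf in normoxia (adjusted p 0.000143) and by 0.88 ± 0.16 in hypoxia (adjusted p 0.000105). The normoxia groups meet at 4 peaks. The region inside IFI44L at chr1:78627283-78627713 was in 4, 0, 4 and 4 libraries, so it was missing only in Raf-active normoxia.

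EPSTI1 had 14, 15, 14 and 14 peaks for Raf-inactive normoxia and 12, 12, 9 and 14 for Raf-active normoxia and fell by 0.51 ± 0.10 (adjusted p 0.000114), a call lost at a fold of at least 5 (-0.18). In Raf-active hypoxia it had 14, 14, 16 and 13, a rise of 0.31 ± 0.10 over Raf-active normoxia (adjusted p 0.0190) that ended without scaling (0.27), at a fold of at least 5 (0.02), at matched depth (0.21) and without Raf-active normoxia replicate 3 (0.22) or Raf-active hypoxia replicate 3 (0.27). IFI6, an inhibitor of apoptosis, fell with Raf in hypoxia by 0.44 ± 0.11 (adjusted p 0.00275), from 6, 6, 7 and 7 to 6, 5, 5 and 6 peaks. Its change turned to 0.13 at 50 kb, and ended without scaling (-0.21) and with base pairs (-0.08). IFI27 rose with Raf in hypoxia by 0.32 ± 0.12 (adjusted p 0.0272), from 4, 4, 3 and 3 to 6, 6, 5 and 5 peaks. That call was lost without any 1 of 4 libraries, at 0.27 each without Raf-inactive hypoxia replicates 3 and 4, and at 0.28 each without Raf-active hypoxia replicates 1 and 2. With hypoxia in Raf-active cells IFI27 rose by 0.36 ± 0.12 (adjusted p 0.0308), from 4, 5, 3 and 5 peaks, a call that ended at 50 kb (0.01), without scaling (0.32), with the compared groups alone (0.37) and without Raf-active normoxia replicates 1 (0.34) and 3 (0.26) or Raf-active hypoxia replicates 1 (0.32) and 2 (0.32). IFI44 with 1 to 3 peaks and XAF1 with 1 to 3 lay below the filter.

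The guanylate-binding proteins, GTPases that attack the vacuoles of intracellular pathogens, form a cluster on chromosome 1 where peaks vanished at GBP4 and GBP5. GBP5 (89256189 to 89272860) had 4, 3, 5 and 4 peaks for Raf-inactive normoxia and 6, 4, 4 and 4 for Raf-inactive hypoxia, and 0 in all 8 Raf-active libraries. GBP4 (89181144 to 89198942) had 1, 3, 1 and 2, then 2, 3, 2 and 3, and again 0 in all 8 Raf-active libraries. The Raf-active libraries had background pileups of 6.09 to 8.34 and the Raf-inactive ones of 3.01 to 5.02. The part of depth in the missing peaks was not tested. At matched depth the Raf-inactive libraries still had 3 to 5 peaks at GBP5 and 1 or 2 at GBP4. Both members lay below the filter. Without the filter, limma called GBP5 lower with Raf in normoxia (adjusted p 2.78e-10) and in hypoxia (adjusted p 2.46e-10), and GBP4 likewise (adjusted p 5.81e-06 and 4.12e-07). At 0 peaks the Raf-active groups had no spread, which lowers the estimate of the spread that all groups share. These p-values thus do not measure variation among the Raf-active replicates. No fold is given against 0 peaks.

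Other genes of the cluster had peaks in every library. GBP1 had 3, 4, 4 and 3, then 2, 2, 3 and 2, then 3, 2, 2 and 3, then 2 in each, and GBP2 had 1 or 2 in every library. The promoter regions of GBP1 and GBP3 and a region inside GBP2 had peaks in all 16 libraries, while the region at the GBP4 start, chr1:89198402-89199072, was in 4, 0, 4 and 0 libraries. A peak reached the GBP4 promoter window itself in 4, 0, 2 and 0. Without the filter, limma gave GBP1 a fall with Raf in normoxia (-0.66, adjusted p 0.000584) and in hypoxia (-0.39, adjusted p 0.0208). At GBP5 the regions chr1:89262606-89263101, chr1:89271566-89271959 and chr1:89274372-89274945 had the same 4, 0, 4 and 0. GBP3 had 3 in each, then 4, 4, 5 and 3, then 3, 3, 4 and 4, then 3, 2, 3 and 2 peaks. It fell with Raf in hypoxia by 0.57 ± 0.14 (adjusted p 0.00177) and with hypoxia in Raf-active cells by 0.47 ± 0.14 (adjusted p 0.0173). The latter call ended at 50 kb (-0.05) and without Raf-active normoxia replicate 3 (-0.36) or Raf-active hypoxia replicates 2 (-0.41) and 4 (-0.40). At matched depth GBP3 was no longer tested.

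**Figure D4:**
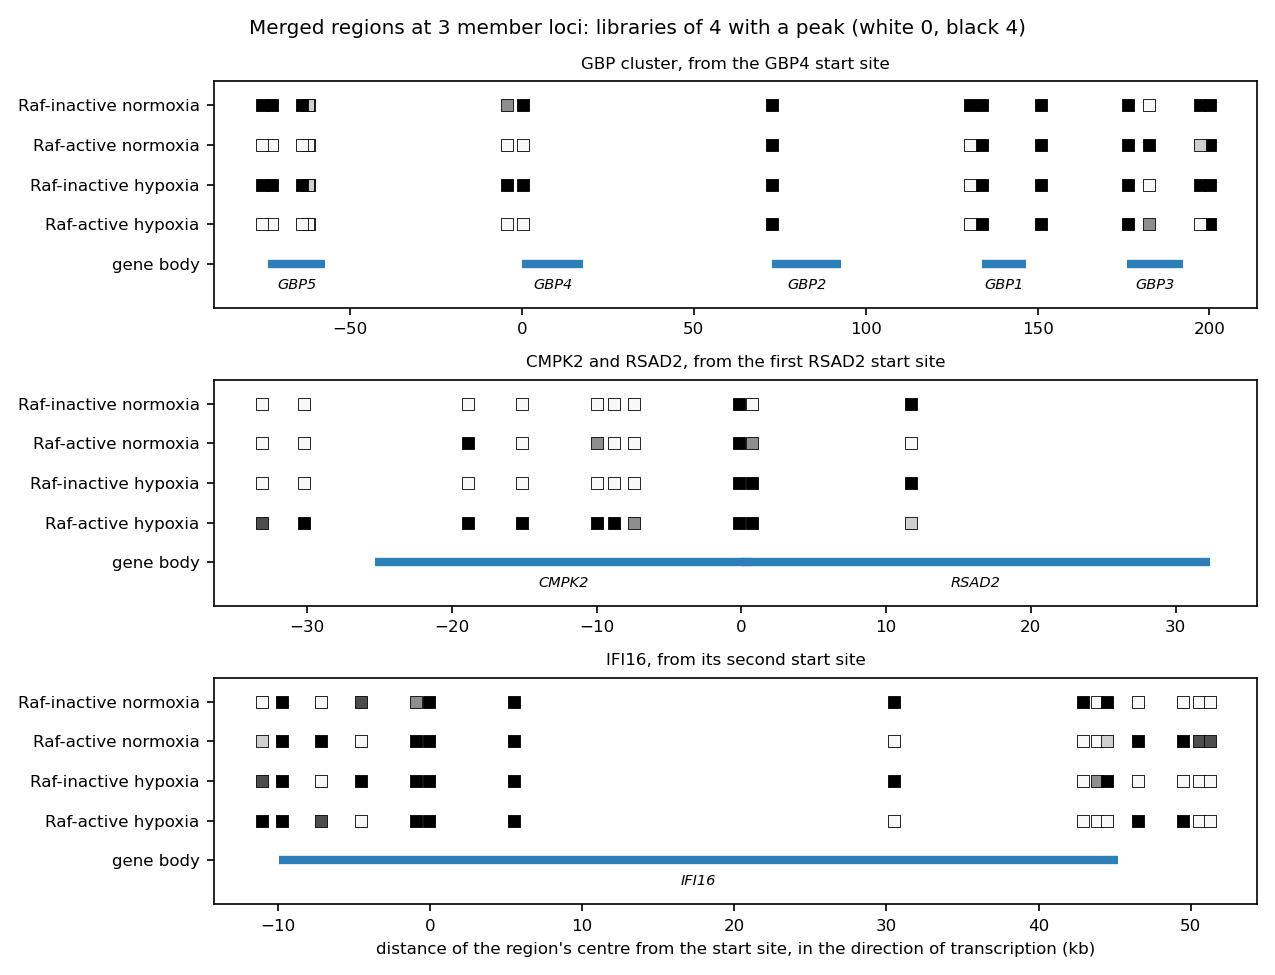
Squares are merged regions, placed by the distance of their centre from a start site in kb, in the direction of transcription, and shaded from white (0 of 4 libraries of a group with a peak) to black (4 of 4). Blue bars are gene bodies. GBP4 and GBP5 are white in the Raf-active rows, the CMPK2 body is filled in Raf-active hypoxia, and the IFI16 region 30505 bases after the start is black in the Raf-inactive rows and white in the Raf-active ones.

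The antigen processing genes share 1 stretch of chromosome 6, so that TAP1, a peptide transporter, and PSMB9, an immunoproteasome subunit, had identical peaks. They had 5 in each Raf-inactive normoxia library and 4, 5, 4 and 4 for Raf-active normoxia, a fall of 0.41 ± 0.10 (adjusted p 0.00146) that ended without scaling (-0.20) and at equal list length (-0.25). PSMB8 had 3 or 4 peaks in every library and was not called.

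Counted by region, the union of the 16 lists gave 299052 merged regions with peaks of at least 2 libraries, and 344 of them overlapped member loci. Any overlap with a locus sufficed here, wherever the summit lay. Every library had a peak in 113 of the 344 (32.8%), against 26.3% of all regions. A region was taken as gained when all 4 libraries of the second group and none of the first had a peak, and as lost when the reverse held. Raf in normoxia gained 51 (14.8%) and lost 25 (7.27%) of the member regions, where 14.1% and 10.6% of all regions did so. Raf in hypoxia gained 47 (13.7%) and lost 26 (7.56%), against 13.8% and 8.82%. Hypoxia gained 3 and lost 6 in Raf-inactive cells, against 1.5% and 1.59% of all regions, and gained 12 and lost 11 in Raf-active cells, against 3.69% and 3.06%. The member shares for hypoxia were 0.872% and 1.74%, and then 3.49% and 3.2%.

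In 23 member regions a peak was present in all 8 Raf-active and no Raf-inactive library, and in 14 the reverse held. The shares of all regions with these patterns, or with peaks confined to 1 group as below, were not computed. The counts therefore do not set the members apart from other loci. The 23 regions included the one at chr2:162258176-162258528 beyond the end of IFIH1, at mean percentile 72.7 in its lists. Peaks confined to the 4 Raf-active hypoxia libraries marked 10 regions, 3 of them at CMPK2, of which 1 also lies in the RSAD2 locus, 1 shared by OAS2 and OAS3, and 1 each at CGAS, DDX60, IFI27, MX1, OAS1 and USP18. Those confined to Raf-active normoxia marked 9, of which chr17:6780944-6781295 near XAF1, chr17:43015723-43016058 near IFI35 and chr2:230457365-230457734 inside SP100 had the highest ranks in their lists. Hypoxia in Raf-inactive cells removed the region chr12:121033876-121034328 inside OASL and chr13:42970815-42971162 inside EPSTI1, each from 4 of 4 to 0 of 4 libraries. The region chr17:43014549-43015231 near IFI35 was gained there in 4 of 4, but in only 2 of 4 at matched depth.

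Of 89 other genes of the pathway, 63 were tested. With Raf in normoxia 26 rose and 20 fell, with Raf in hypoxia 19 rose and 14 fell, with hypoxia in Raf-inactive cells 5 rose and 3 fell, and with hypoxia in Raf-active cells 6 rose and 7 fell. With Raf in normoxia 41.3% rose and 31.7% fell, against 37.5% and 25.6% of all loci, and with Raf in hypoxia 30.2% and 22.2%, against 34% and 26.2%, so these shares lie near those of all loci. With hypoxia they were 7.94% and 4.76% in Raf-inactive cells, against 6.41% and 7.33%, and 9.52% and 11.1% in Raf-active cells, against 13.6% and 14.2%. JAK2, the kinase at the interferon gamma receptor, went from 6.74 ± 0.47 to 1.12 ± 0.43 scaled peaks (SD, n = 4) with Raf in normoxia, a log2 change of -1.89 ± 0.17 (adjusted p 9.62e-09). IFNGR1, a chain of that receptor, went from 2.70 ± 0.63 to 8.36 ± 1.06, a rise of 1.35 (adjusted p 6.01e-07) that ended at 50 kb (0.07). IFNA1 rose by 1.25 in normoxia and by 1.20 in hypoxia, the latter turning to -0.13 at 50 kb. TRIM25, a ligase that activates RNA sensing, rose by 1.42 with Raf in hypoxia (adjusted p 3.13e-08), and PIAS1, a SUMO ligase that dampens interferon signalling, fell by 1.00, which turned to 0.12 at a fold of at least 5. With hypoxia in Raf-active cells IFNGR1 fell by 1.07, MAVS fell by 0.70 and JAK2 rose by 0.84. With hypoxia in Raf-inactive cells IRF5 fell by 0.75, and the interferon lambda genes IFNL1 and IFNL2 rose by 0.75 and 0.51. IRF5, IFNL1 and IFNL2 passed the filter only through the Raf-active groups. They were not tested with the compared groups alone, at matched depth or at a fold of at least 5. JAK2 passed it only through the Raf-inactive groups, and its hypoxia change in Raf-active cells was not tested with the compared groups alone. IFNA1 was not tested at matched depth. The MAVS call ended at matched depth (-0.55) and without Raf-active normoxia replicates 1 (-0.68) and 2 (-0.65) or Raf-active hypoxia replicate 4 (-0.62), and that of JAK2 at equal list length (0.52). The IRF5 call ended at 50 kb (-0.08) and without Raf-inactive normoxia replicates 3 (-0.66) and 4 (-0.67) or Raf-inactive hypoxia replicates 2 (-0.65) and 3 (-0.65). The IFNL1 call ended without Raf-inactive hypoxia replicate 1 (0.50), and that of IFNL2 without any 1 of 9 libraries (0.36 to 0.51). IFNL2 also lost its call without scaling (0.46), with looser filters (0.51), at 50 kb (0.38), with base pairs (0.25), at a −log10 q of at least 5 (0.29) and at equal list length (0.27).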

How the data were processed

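ATAC-seq was measured in 16 libraries (4 groups, 4 replicates). Reads were processed with Bowtie2, Picard, SAMtools and MACS2 on hg38, per the submitters' processing notes, with versions and settings not given in the sources used here. The deposited peak lists, 1 per library, hold for each peak the authors' score, a whole number, the fold enrichment of the summit over background, and −log10 p and −log10 q. No read totals are given, so the depth was taken from the background pileup recovered from the fold and −log10 p.

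Lines sharing an interval were counted as 1 peak with its strongest summit. Loci and start sites came from RefSeq GRCh38.p14. Peaks per locus were scaled to the library's total, taken as log2(scaled peaks + 1), and tested with limma 3.58.1 (R 4.3.3) over 16 libraries with 4 group means and a trended prior at loci whose mean reached 3 peaks, with Benjamini-Hochberg adjustment over all 15175 and calls below 0.05. Matched depth means random thinning of each peak to the lowest background pileup, 3.01, keeping peaks with −log10 p of at least 5. Equal list length kept the 169287 peaks with the strongest p in each list. Regions are unions of overlapping peaks. Promoter letters are from RefSeq.

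The members, gene lists and tests were chosen with earlier results of these data known. Genes are named by role, with all members accounted for, regions by rank (3 per comparison and direction), and 3 pathway genes per comparison by size of change. Other regions, at GBP4, GBP5, STAT2, IRF7, IFI16, IFITM and CMPK2, were chosen after their values were seen. On simulated data for Raf in normoxia, 4.84% of 62 loci changed 1.5-fold, 24.2% of 62 changed 2-fold and 63.5% of 63 changed 3-fold were recovered. Of 14861 unchanged loci, 0.0135% were called. The simulated numbers were drawn from a Poisson distribution and few loci were changed, while in the data 63.1% of loci were called. These rates therefore need not hold for the real lists. Figures used matplotlib 3.10.9.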

Additional observations from a re-analysis of the deposited data

Results flagged for a closer look

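The Raf change differed between hypoxia and normoxia at 7 members by the limma interaction term. Raf in hypoxia minus Raf in normoxia was -0.88 for IFI35, -0.68 for GBP3, -0.48 for IFI16, -0.46 for IFITM1, -0.41 for SP100 and -0.32 for IFIH1, and 0.58 for USP18, all on the log2 scale. The GBP3 call was lost at 50 kb (-0.08) and with base pairs (-0.19), and those of IFI35 (-0.10) and SP100 (-0.44) at a fold of at least 5. The IFI16 call was lost at 2 kb (-0.35), at equal list length (-0.46) and at matched depth (-0.39). It was also lost at a −log10 q (-0.39) or fold (-0.07) of at least 5 and without any 1 of 6 libraries. The IFITM1 call was lost at 50 kb (-0.13), with base pairs (-0.13), at a −log10 q of at least 5 (-0.36) and without any 1 of 7 libraries. At a fold of at least 5 it turned to 0.014. The IFIH1 call was lost at 2 kb (-0.24), at a −log10 q of at least 5 (-0.35) and without any 1 of 14 libraries.

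In 19 of 84 groups of 4 replicates, 1 library stood far from the other 3 in scaled peaks, and in 16 of these the listed numbers differed by at most 1 peak. For continuous values, chance flags about 1 in 20 such groups. For small whole numbers of peaks, where a difference of 1 peak can suffice, the chance rate was not computed. In Raf-inactive normoxia the flagged values were IFI44L in replicate 3 (4.33), IFITM2 and OAS2 in replicate 2 (5.45 each) and ISG20 in replicate 4 (7.45). In Raf-active normoxia they were CMPK2 in replicate 2 (1.77), IFI35 in replicate 1 (8.02), and IFITM3 (6.64) and TRIM22 (2.85) in replicate 3. In Raf-inactive hypoxia they were IFI44L (6.85), ISG20 (6.85) and IFIT1 (4.57) in replicate 3, IFITM1 (7.84), IFITM3 (4.48) and TRIM22 (6.72) in replicate 4, IFITM2 in replicate 1 (6.65) and IRF9 in replicate 2 (2.24). In Raf-active hypoxia they were IFIT2 (2.80) and PARP14 (3.73) in replicate 1 and IFITM3 in replicate 3 (5.46).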

How the results depend on the processing

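Recomputed under other settings, counts of calls and regions stayed within 1.5 times the reported one in 164 instances and left that range in 31. Members called with Raf in normoxia (21) became 37 at 50 kb flanks, 34 with base pairs and 13 at a fold of at least 5. With Raf in hypoxia (21) they became 11 at 2 kb, 46 at 50 kb and 11 at that fold. With hypoxia in Raf-inactive cells (3) they became 5 without the filter, 6 at 50 kb, 9 with base pairs, 5 at that fold, 1 at equal list length and 1 with only the compared groups fitted. All loci called there (2085) became 3714 with base pairs and 1136 with only the compared groups. With hypoxia in Raf-active cells members (14) became 8 at 2 kb, 23 with base pairs and 6 at that fold, and all loci (4218) became 6508 at 50 kb and 6396 with base pairs. Interaction calls (7) became 17 at 50 kb and 20 with base pairs, and over all loci (2965) 4923 with base pairs. Leaving out 1 library gave 9 to 15 members for hypoxia in Raf-active cells and 3 to 5 regions gained with hypoxia in Raf-inactive cells.

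At a fold of at least 5, regions gained with Raf fell to 23 in normoxia and 20 in hypoxia, and those lost with hypoxia in Raf-active cells became 7, as at matched depth (7). Counting 3 of 4 against 1 of 4 libraries gave 40 regions lost with Raf in normoxia, 10 gained and 13 lost with hypoxia in Raf-inactive cells, and 26 gained and 26 lost in Raf-active cells.

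Signs turned at 50 kb for MX1 (0.22) and PARP9 (0.17) with Raf in normoxia and IFI6 (0.13) and IFNA1 (-0.13) with Raf in hypoxia, and at 2 kb for DDX60 (0.087) there. At a fold of at least 5 they turned for IFITM1 with Raf in normoxia (-0.31) and its interaction (0.014), and for PIAS1 (0.12) and SP100 (-0.11) with Raf in hypoxia. STAT2 turned at equal list length (-0.11), OAS2 with hypoxia in Raf-active cells at matched depth (-0.032) and IFITM2 with hypoxia in Raf-inactive cells with base pairs (-0.020). The cause was not tested.

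The replicate numbers did not pair the libraries: over 24 pairs the correlations of same-numbered libraries ran from -0.0372 to 0.0188. With the replicate block, members called were 21, 21, 2, 12 and 7 over the 4 comparisons and the interaction, and all loci 9521, 9025, 2003, 4133 and 2849. Of 78 results on named genes, 4 were not called with the block: IFITM2 with hypoxia in Raf-inactive cells (0.30), OAS1 (0.45) and OAS2 (0.33) with hypoxia in Raf-active cells, and the interaction of IFIH1 (-0.32).

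Depth was higher in Raf-active libraries, and among Raf-inactive libraries it was higher in hypoxia. The part of depth in the number of listed peaks was not tested. Peak numbers say little about heights. Overlap by summits within 250 bases and the 250-base promoter window were added after seeing the data. The planned motif search around the strongest summit was not run.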
